A study of Gallus gallus with 6 samples.

Results

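Myostatin, the activin beta A subunit, their type II receptors and the secreted proteins that bind them were followed as cultured chicken muscle precursors differentiated into myotubes. The genes were the 8 whose listed name is MSTN, INHBA, FST, FSTL1, ACVR2A, ACVR2B, WFIKKN1 or WFIKKN2, and all 8 were found once among the 24881 Ensembl genes of every table. RNA sequencing was done on primary skeletal muscle cells of the chicken embryo at passage 1, in 2 groups of 3 libraries. Myotubes, the multinucleated forerunners of muscle fibres, came from cultures moved to RPMI-1640 with 2% horse serum and 2% antibiotics. Myoblasts, the dividing single cells, were kept in RPMI-1640 with 15% fetal bovine serum and the same antibiotics. Serum and stage change together between the groups and cannot be told apart. The deposited tables also differ by group in the loci they list, as given under the processing. The labels give neither the time spent in horse serum nor the origin of each library, which may be a culture or embryo of its own or a technical repeat. All p-values rest on the spread between these libraries, whatever its source.

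Myostatin, encoded by MSTN, is a ligand of the TGF-beta superfamily made mainly by skeletal muscle, and its loss enlarges muscles in mice and cattle. Activin A is a dimer of the INHBA product and restrains muscle growth through the same route. Both ligands bind the type II receptors ACVR2A and ACVR2B, which recruit a type I receptor that phosphorylates SMAD2 and SMAD3. Follistatin (FST) wraps around both ligands and blocks receptor binding. WFIKKN1 and WFIKKN2 encode multidomain secreted proteins that bind myostatin and its close relative GDF11, as shown with mammalian proteins. FSTL1 shares a follistatin-type domain, but is known as a secreted glycoprotein of mesenchyme and muscle that binds BMP4 rather than as a strong activin antagonist.

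In myotubes MSTN was 3.31-fold and FSTL1 1.37-fold higher, INHBA was 1.73-fold lower and ACVR2A was 1.15-fold lower, a fall that held under some processing settings and not under others. ACVR2B, too low for the main test, was 2.23-fold higher in a test without a level filter. FST and WFIKKN1 did not pass the test, and WFIKKN2 was barely detected. Counts were compared with edgeR's quasi-likelihood test over the 12808 genes with a mean FPKM (fragments per kilobase of gene, scaled to library size) of at least 1, and a gene was called at a Benjamini-Hochberg adjusted p under 0.05. Of the 6 members in that test, 2 were called higher and 2 lower, in a comparison where 36.7% of all tested genes were called higher and 35.7% lower. By CPM (read counts relative to library size, scaled with edgeR's TMM method) the libraries of the groups did not overlap in 4 of the 6, and in 76.1% of all tested genes. Being called is therefore common here, and sizes and levels say more than calls.

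Libraries held 21893152 to 23519295 counted reads in myotubes and 16052542 to 20981337 in myoblasts. All 10 matched skeletal muscle markers, such as MYOD1, MYOG and DES, had reads in every library. Of these 6 were called higher, such as MYOM2 at 16.7-fold, and 4 lower, such as MYF5 at 11.5-fold, MYF6 at 9.75-fold and MYOD1 at 2.39-fold. Markers of other cells moved as well. Of 11 tested fibroblast markers 10 were called higher and none lower, with a summed level of 11988 to 13832 CPM in myotubes and 6009 to 6139 CPM in myoblasts. All 8 tested blood and macrophage markers were called lower, at 266 to 285 CPM in myotubes and 1095 to 1159 CPM in myoblasts. The 5 neural crest, glia and pigment markers used here summed to 4.04 to 4.98 CPM in myotubes and 134.8 to 150.1 CPM in myoblasts. Most of that sum was MLANA, at 3.37 ± 0.58 CPM in myotubes and 119 ± 7.97 CPM in myoblasts. Smooth muscle and pericyte markers summed to 122 to 129 CPM in myotubes and 261 to 289 CPM in myoblasts, and adipocyte markers to 124 to 156 CPM in myotubes and 249 to 271 CPM in myoblasts. Within each of these lists the markers were split, with 2 tested markers called lower and 1 higher. Those called higher were MYH11 at 4.28-fold and PPARG at 2.94-fold. Endothelial, cartilage and neuron markers each summed to at most 7.95 CPM in any myotube library and at most 17.7 CPM in any myoblast library, and each sum was lower in every myotube library. Most of the endothelial sum was FLT1, at 5.28 ± 0.87 CPM in myotubes and 12.6 ± 0.21 CPM in myoblasts. Single markers could differ from their sum. CDH5, also endothelial, was higher in every myotube library, at 0.96 ± 0.27 against 0.52 ± 0.22 CPM. The neuron marker STMN2 had 10 reads over the myotube and 1 over the myoblast libraries. Among the pigment markers DCT had no read in myotubes, and no matched marker of any list was at 0 in all libraries. In bulk RNA, fewer cells of a type and less RNA per cell cannot be told apart, and the part of these cells in the results below was not tested.

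MSTN, on chromosome 7 at 218083 to 223575 on the plus strand in the tables' unnamed build, stood at 14.6, 14.3 and 14.3 CPM in the myotube libraries and at 4.90, 4.997 and 3.27 CPM in the myoblast libraries. The groups were far apart, and the myotube values lay closer together than counting error alone would give, with a coefficient of variation of 1.07% against 5.52% for pure counting. Myoblast replicate 3 was the lowest of all. The log2 fold change was 1.72 ± 0.16 (SE), with a 95% interval of 2.59-fold to 4.21-fold and an adjusted p of 4.2e-06 in edgeR's test. Without myoblast replicate 3 or any other single library it lay between 1.53 and 1.83.

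INHBA, on chromosome 2 at 50747740 to 50762675 on the minus strand, moved the other way. It stood at 16.1, 13.9 and 15.7 CPM in myotubes and at 28.7, 24.6 and 25.5 CPM in myoblasts, with no overlap. The log2 fold change was -0.79 ± 0.10 (SE; adjusted p = 5.0e-05), and its 95% interval ran from -1.01 to -0.56.

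**Figure D1:**
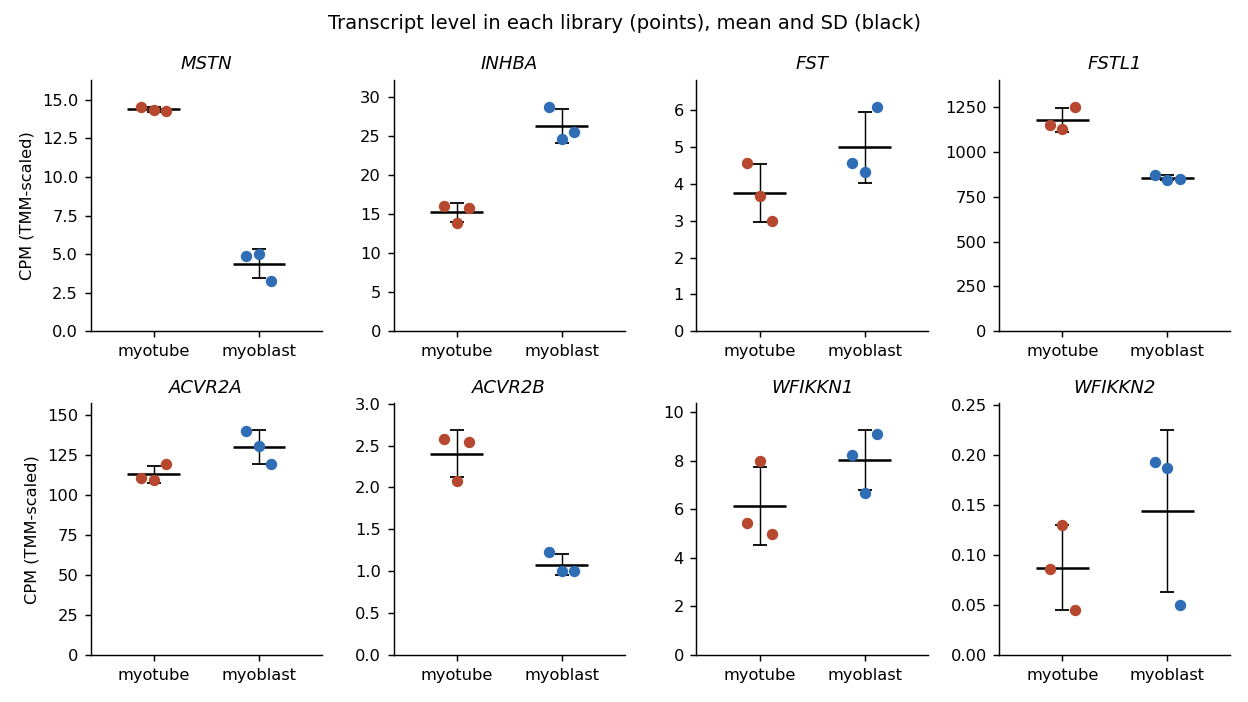
Level of each gene in CPM in the 3 myotube libraries (left, red) and the 3 myoblast libraries (right, blue), with the mean and SD in black and a separate axis from 0 for each gene. MSTN, FSTL1 and ACVR2B lie wholly higher and INHBA and ACVR2A wholly lower in myotubes, while FST, WFIKKN1 and WFIKKN2 overlap.

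Set per length, the order of the 2 ligands turned round. In CPM, which takes no account of length, MSTN averaged 14.4 and INHBA 15.2 in myotubes, and their libraries overlapped. That MSTN stood above INHBA in myotubes therefore rests on the gene lengths used. In FPKM, MSTN averaged 12.8 ± 0.06 and INHBA 9.45 ± 0.66 in myotubes (SD, n = 3), whereas MSTN averaged 3.73 ± 0.85 and INHBA 15.6 ± 1.41 in myoblasts. The ratio of MSTN to INHBA within a library does not depend on how libraries are scaled. It was 1.29, 1.48 and 1.30 in myotubes and 0.243, 0.290 and 0.183 in myoblasts, 5.68-fold higher in myotubes by the group means. MSTN thus supplied 56.4, 59.6 and 56.4% of the summed FPKM of both ligand genes in myotubes, and 19.6, 22.5 and 15.5% in myoblasts. The sum itself differed less, at 22.6, 21.5 and 22.5 FPKM in myotubes and 21.5, 18.9 and 17.8 FPKM in myoblasts. FPKM uses the length behind the authors' value, and with the length listed for INHBA the share of MSTN would be 58.6% ± 1.83 in myotubes and 19.9% ± 3.62 in myoblasts.

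Of 5 other ligand genes looked up by name, GDF11 and INHBB matched a row, and INHA, INHBC and NODAL did not. GDF11, the closest relative of MSTN, averaged 2.81 ± 0.31 CPM in myotubes and 1.43 ± 0.50 CPM in myoblasts and rose 1.98-fold (edgeR adjusted p = 0.0074). Whether reads can be shared between these relatives was not tested. INHBB, the activin beta B subunit, lay under the level filter with 31 reads over the myotube and 62 over the myoblast libraries. In the test without a level filter it was 2.64-fold lower in myotubes (edgeR adjusted p = 0.010), with no overlap in CPM. That test called 5001 of 20031 genes lower in myotubes. Per length, GDF11 reached 2.38 FPKM in myotubes and 1.16 FPKM in myoblasts, below MSTN and INHBA in both groups.

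Of ACVR2A and ACVR2B, the far more abundant transcript was ACVR2A, on chromosome 7 at 34687035 to 34741921 on the plus strand. It stood at 110.7, 109.1 and 119.1 CPM in myotubes and at 140.1, 130.3 and 119.4 CPM in myoblasts. In CPM the groups only just separate, since myotube replicate 3 and myoblast replicate 3 nearly coincide. In FPKM they overlap, with 54.9 in myotube replicate 3 and 51.7 in myoblast replicate 3. The log2 fold change was -0.20 ± 0.07 (SE; edgeR adjusted p = 0.022). The call was lost in 11 of 18 other settings, and over all 18 the adjusted p ranged from 0.0065 to 0.83. Leaving out any of 4 libraries ended it, with an adjusted p of 0.053 without myotube replicate 1, 0.085 without myotube replicate 2, 0.082 without myoblast replicate 1 and 0.067 without myoblast replicate 2. On a TPM scale, with libraries scaled by their summed FPKM, which moves the median of all genes up by 0.18 on the log2 scale, the log2 fold change was -0.02 (adjusted p = 0.83).

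ACVR2B, on chromosome 2 at 5768485 to 5858475 on the minus strand, was scarce. It had 60, 48 and 56 reads in the myotube libraries and 19, 16 and 20 in the myoblast libraries, or 2.58, 2.08 and 2.54 CPM against 1.22, 1.00 and 1.01 CPM. Every myotube library was above every myoblast library. Its mean FPKM of 0.91 put it under the filter, so it was tested among the 20031 genes with any read. There the log2 fold change was 1.15 ± 0.26 (SE), 2.23-fold with a 95% interval of 1.51-fold to 3.28-fold and an edgeR adjusted p of 0.0016, where 27.8% of genes were called higher. A listed gene of 110 bases without a name lies inside ACVR2B on the same strand, and held 1 read over the 6 libraries. The ratio of ACVR2A to ACVR2B in FPKM was 36.9, 45.2 and 40.4 in myotubes and 98.6, 112.3 and 102.1 in myoblasts. ACVR2B therefore stayed the minor transcript of this receptor pair in all 6 libraries, by a margin 2.56-fold smaller in myotubes.

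**Figure D2:**
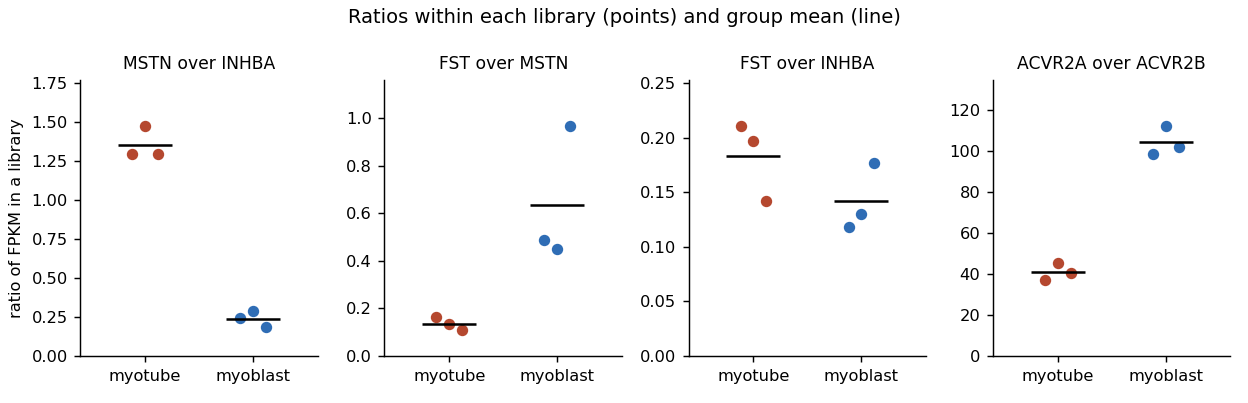
Ratios of FPKM within each library for pairs of genes, myotube libraries (red) left of myoblast libraries (blue), with the group mean as a line and each axis from 0. MSTN over INHBA lies between 1.29 and 1.48 in myotubes and between 0.183 and 0.290 in myoblasts, and ACVR2A over ACVR2B is lower in every myotube library.

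Among the 8 genes, the antagonists FST, WFIKKN1 and WFIKKN2 were low, and none of them passed the test. FST, on chromosome Z at 16072649 to 16079246 on the plus strand, stood at 4.56, 3.68 and 2.996 CPM in myotubes and at 4.57, 4.31 and 6.10 CPM in myoblasts. Myotube replicate 1 reached the level of the myoblasts, and myoblast replicate 3 was the highest. The log2 fold change was -0.42 ± 0.21 (SE), with a 95% interval of -0.89 to 0.05 and an edgeR adjusted p of 0.097, so ratios of myotube to myoblast from 0.540 to 1.04 lay within the interval. Without myotube replicate 1 it was -0.59 and passed (adjusted p = 0.039), as it did by quantile normalization at -0.56 (adjusted p = 0.037), and over all 18 other settings the adjusted p ran up to 0.34. Over the tested genes with enough reads, myotube replicate 1 was less like replicates 2 and 3 than these were to each other. The chi-square of counts per gene was 16.1 and 20.3 for its pairs with them, and 8.90 between them. The 575 tested genes of chromosome Z had a median log2 fold change of -0.05, against 0.02 for the other chromosomes.

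WFIKKN1, on chromosome 14 at 13618722 to 13621217 on the plus strand, stood at 5.43, 7.97 and 4.99 CPM in myotubes and at 8.24, 6.68 and 9.12 CPM in myoblasts. Here myotube replicate 2 alone lay among the myoblast values. The log2 fold change was -0.39 ± 0.20 (SE), with a 95% interval of -0.83 to 0.05 (edgeR adjusted p = 0.10). Without myotube replicate 2 it was -0.62 (adjusted p = 0.015), and by quantile normalization it was -0.55 (adjusted p = 0.030). Its relative WFIKKN2, on chromosome 18 at 10189967 to 10193843 on the minus strand, had 2, 3 and 1 reads in myotubes and 3, 3 and 1 reads in myoblasts. The ratio of these reads per library size was 0.645, with an exact 95% interval of 0.179 to 2.24 that covers counting error only, so no difference was detectable at this depth.

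Against MSTN, which itself differed between the groups, both FST and WFIKKN1 were lower in myotubes. FST over MSTN, in FPKM, was 0.163, 0.133 and 0.109 in myotubes and 0.485, 0.448 and 0.967 in myoblasts, lower in every myotube library. WFIKKN1 over MSTN was 0.243, 0.362 and 0.228 in myotubes and 1.10, 0.872 and 1.81 in myoblasts. FST over INHBA overlapped, at 0.211, 0.197 and 0.141 in myotubes and 0.118, 0.130 and 0.177 in myoblasts. The first 2 ratios share MSTN as their denominator.

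FSTL1, on chromosome 1 at 79864143 to 79907705 on the plus strand, was the most abundant of the 8 genes by far. It stood at 1154, 1128 and 1254 CPM in myotubes and at 875, 846 and 853 CPM in myoblasts, with no overlap. The log2 fold change was 0.46 ± 0.06 (SE; edgeR adjusted p = 4.7e-05), with a 95% interval of 1.26-fold to 1.502-fold. Per length, at 283 ± 17.1 FPKM in myotubes and 197 ± 5.14 FPKM in myoblasts (SD, n = 3), it exceeded 97.7% and 95.5% of tested genes in those groups. Of the 11 tested fibroblast markers 10 were called higher in the same libraries, and THY1 was not (log2 fold change -0.07, edgeR adjusted p = 0.54). Whether this bears on FSTL1 was not tested.

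**Figure D3:**
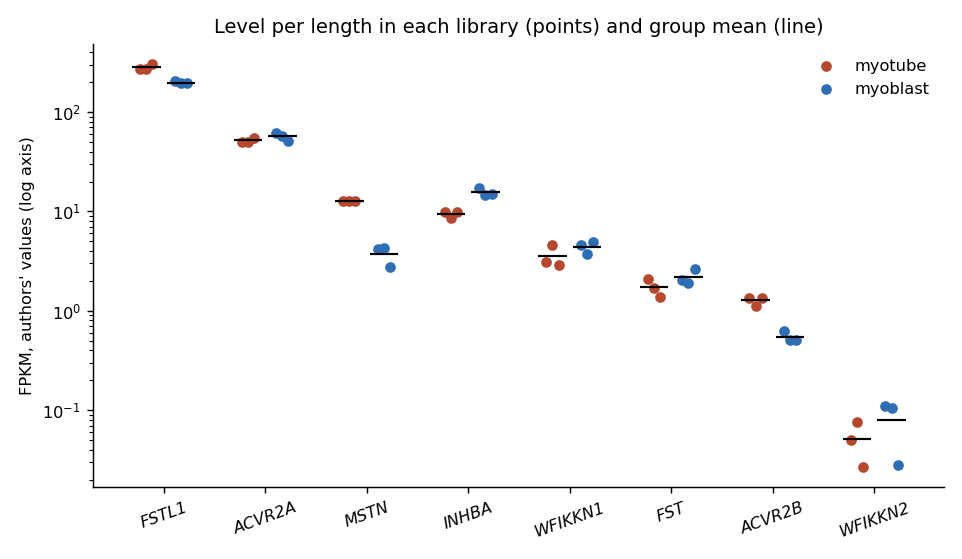
Level per length of the 8 genes in FPKM on a log axis, for the 3 myotube libraries (red) and the 3 myoblast libraries (blue), with group means as lines, ordered by the myotube mean. FSTL1 and ACVR2A lead in both groups, and MSTN stands above INHBA in myotubes but below it in myoblasts.

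By FPKM in myotubes the order was FSTL1, ACVR2A, MSTN, INHBA, WFIKKN1, FST, ACVR2B and WFIKKN2, and the libraries of each gene lay wholly above those of the next. In myoblasts INHBA at 15.6 FPKM came next after ACVR2A, and WFIKKN1 at 4.43 ± 0.66 FPKM and MSTN at 3.73 ± 0.85 FPKM overlapped. No other neighbours in that order overlapped. The levels span from 283 FPKM for FSTL1 to 0.051 FPKM for WFIKKN2 in myotubes, and from 197 to 0.081 FPKM in myoblasts. With listed lengths ACVR2A would average 36.2 FPKM in myotubes and 39.9 FPKM in myoblasts, which leaves it second.

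**Figure D4:**
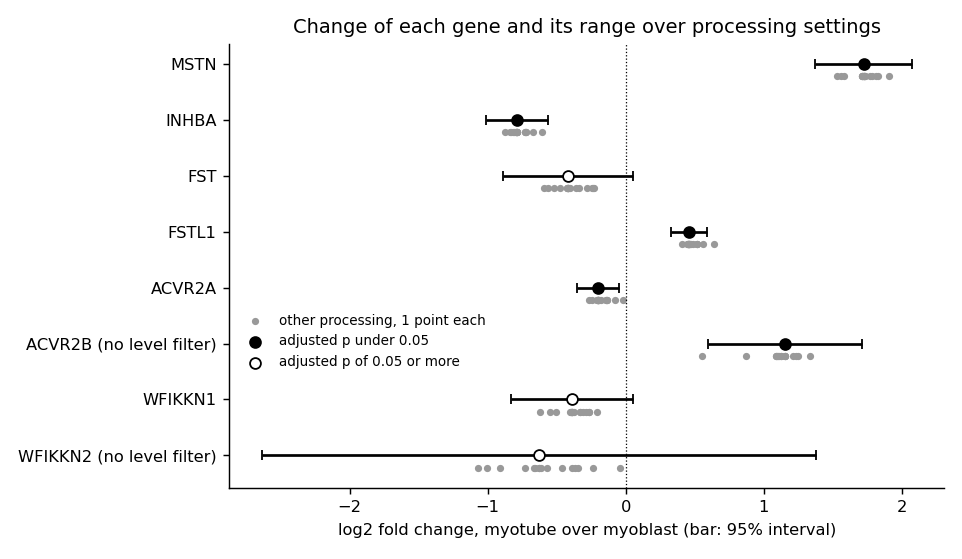
Log2 fold change of myotube over myoblast for each gene with its 95% interval (black, filled where the adjusted p is under 0.05) and, below it, the value under each other processing setting (grey). No setting puts a gene on the other side of 0, but those of ACVR2A reach -0.02.

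The genes whose profile over the 6 libraries was nearest, by root mean square distance of centred log2 CPM, were listed for each tested member. For MSTN these were DENND6B (distance 0.052), SKI (0.084) and CASZ1 (0.091). SKI encodes a co-repressor of SMAD proteins, and averaged 35.0 ± 1.89 CPM in myotubes and 10.4 ± 1.72 CPM in myoblasts. For INHBA they were ZNFX1, UXS1 and PSIP1 (0.045 to 0.066), for FSTL1 SCAF11, the myosin heavy chain gene MYH15 and PIK3CD (0.021 to 0.022), and for ACVR2A HOMER3, CRYL1 and the collagen crosslinking enzyme gene LOX (0.030 to 0.036). FST had MRPS2, TMEM200B and KLHDC8B (0.107 to 0.113) and WFIKKN1 had UNC93B1, PNMT and APOA5 (0.092 to 0.099). Within a distance of 0.1 there were 499 named genes for FSTL1, 498 for ACVR2A and 88 for INHBA. There were 3 each for MSTN and WFIKKN1 and none for FST, so nearness to FSTL1 and to ACVR2A is common. The distance depends largely on the size of the group difference. The log2 fold changes of DENND6B, SKI and CASZ1 were 1.72, 1.75 and 1.73, where the quartiles of all tested genes were -0.50 and 0.59. A link between MSTN and SKI was not tested.

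Of the listed genes around these 8, more of those tested were called higher than lower in myotubes. The lists were chosen with earlier results of these data known, so the shares below describe the lists and do not test the pathway. Of 52 listed genes 40 matched a row and 34 were tested. Of these 22 were called higher (64.7%, against 36.7% of all tested genes). Another 5 were called lower (14.7%, against 35.7%), and 7 were not called. Matched genes under the level filter are outside these counts. In edgeR's test without that filter INHBB, ACVR1C, FSTL4 and SPOCK3 were called lower, and SPOCK1 and FSTL5 were not called. The counts over the 34 tested genes include genes that share only a follistatin-type domain with FST. Without that list 29 genes were tested, of which 18 were called higher (62.1%), 4 lower (13.8%) and 7 not called. Their median log2 fold change was 0.61. With it the median was 0.73, against 0.01 for all tested genes. On the TPM scale 26 were called higher and 5 lower, where all tested genes split into 5852 higher and 3481 lower, instead of 4706 and 4577.

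The proteases that free the ligands from their precursors were mixed. FURIN and PCSK6 encode proprotein convertases, and TLL1 and TLL2 encode tolloid proteases of the group that cuts the myostatin propeptide. PCSK6 rose 5.42-fold, at 76.8 ± 10.1 CPM in myotubes and 14.2 ± 1.69 CPM in myoblasts, and TLL1 rose 2.02-fold. FURIN fell 1.58-fold, at 93.7 ± 9.11 CPM in myotubes and 148 ± 3.65 CPM in myoblasts, and TLL2 had an adjusted p of 0.26.

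Among 5 tested genes of other binding proteins and co-receptors, 2 rose, 2 fell and LTBP1 was not called. Of all tested genes 36.7% were called higher and 35.7% lower. FSTL3, a follistatin relative that also binds activin and myostatin, fell 2.81-fold, at 2.31 ± 0.91 CPM in myotubes and 6.53 ± 0.65 CPM in myoblasts. BAMBI, a decoy receptor without a kinase, fell 6.11-fold to 6.09 ± 0.53 CPM in myotubes, against 37.3 ± 1.19 CPM in myoblasts. The proteoglycan decorin (DCN), which can bind myostatin and is also one of the fibroblast markers above, rose 2.15-fold, at 1372 ± 106 CPM in myotubes and 639 ± 6.44 CPM in myoblasts. TGFBR3, the co-receptor betaglycan, rose 1.79-fold.

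Downstream, the type I receptor gene ACVR1B rose 1.84-fold, at 65.5 ± 4.68 CPM in myotubes and 35.6 ± 2.22 CPM in myoblasts, and TGFBR1 rose 1.37-fold. ACVR1 was not called (adjusted p = 0.058), though its CPM was lower in every myotube library. It was called lower under 1 other scaling, and its sign turned on the TPM scale and by quantile normalization. ACVR1C lay under the level filter, with 12 reads over the myotube and 28 over the myoblast libraries. Without that filter it was 3.03-fold lower in myotubes (edgeR adjusted p = 0.024), with no overlap in CPM. In that test 5001 of 20031 genes were called lower. Of 11 tested genes of the SMAD relay 8 were called higher and 1 lower, where 36.7% and 35.7% of all tested genes were. SMAD7, also listed, matched no row by name. The genes that rose included SMAD2 (1.91-fold), SMAD4 (2.13-fold) and ZFYVE9 (2.42-fold), which encodes an adaptor that presents SMAD2 to receptors. SMAD3 rose 1.18-fold, with overlapping libraries (adjusted p = 0.035). SKI rose most, 3.38-fold, and its relative SKIL rose 1.53-fold. SMURF2 and SMURF1, which encode ubiquitin ligases that act on SMAD proteins and receptors, rose 1.85-fold and 1.503-fold. TGIF1, another SMAD co-repressor gene, fell 1.48-fold. PMEPA1, a target of TGF-beta signalling that also dampens it, stood at 54.0 ± 3.06 CPM in myotubes and 52.8 ± 2.02 CPM in myoblasts (adjusted p = 0.71), and PPM1A, a phosphatase gene of the relay, had an adjusted p of 0.20. On the TPM scale these 2 genes were called higher (adjusted p = 0.027 and 0.0050). By quantile normalization PPM1A was called higher too (limma adjusted p = 0.018), and PMEPA1 was not called (limma adjusted p = 0.55).

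Myostatin is known to lower AKT activity and so to release FOXO factors that induce the muscle ubiquitin ligases. FBXO32, which encodes the ligase atrogin, rose 2.25-fold, at 54.8 ± 4.70 CPM in myotubes and 24.3 ± 1.08 CPM in myoblasts. The ligase gene TRIM63 rose 2.02-fold and FOXO3 rose 2.20-fold, while FOXO1 and AKT1 were not called (adjusted p = 0.086 and 0.23). FOXO1 was called higher on the TPM scale (edgeR adjusted p = 0.0023) and by quantile normalization (limma adjusted p = 0.045). AKT1 was called higher in both as well (edgeR adjusted p = 0.0053, limma adjusted p = 0.022). Whether the level of MSTN or the change of serum bears on these genes was not tested.

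FSTL1 was also set beside other genes with a follistatin-type domain, of which 6 were tested. The matricellular genes SMOC2 and SMOC1 rose 9.51-fold and 5.41-fold, SMOC2 standing at 37.2 ± 3.34 CPM in myotubes and 3.92 ± 0.34 CPM in myoblasts. SPARC, the most abundant of them, rose 1.17-fold but was not called by quantile normalization (adjusted p = 0.47), and SPARCL1 rose 1.82-fold. AGRN, which encodes agrin of the neuromuscular junction, fell 2.99-fold, and FSTL3 fell as given above. The other matched genes lay under the level filter. In edgeR's test without it FSTL4 was 2.89-fold lower (adjusted p = 0.0037) and SPOCK3 5.34-fold lower (adjusted p = 0.0042). That test called 5001 of 20031 genes lower. There SPOCK1 (adjusted p = 0.056) and FSTL5 (adjusted p = 0.73) did not pass.

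**Figure D5:**
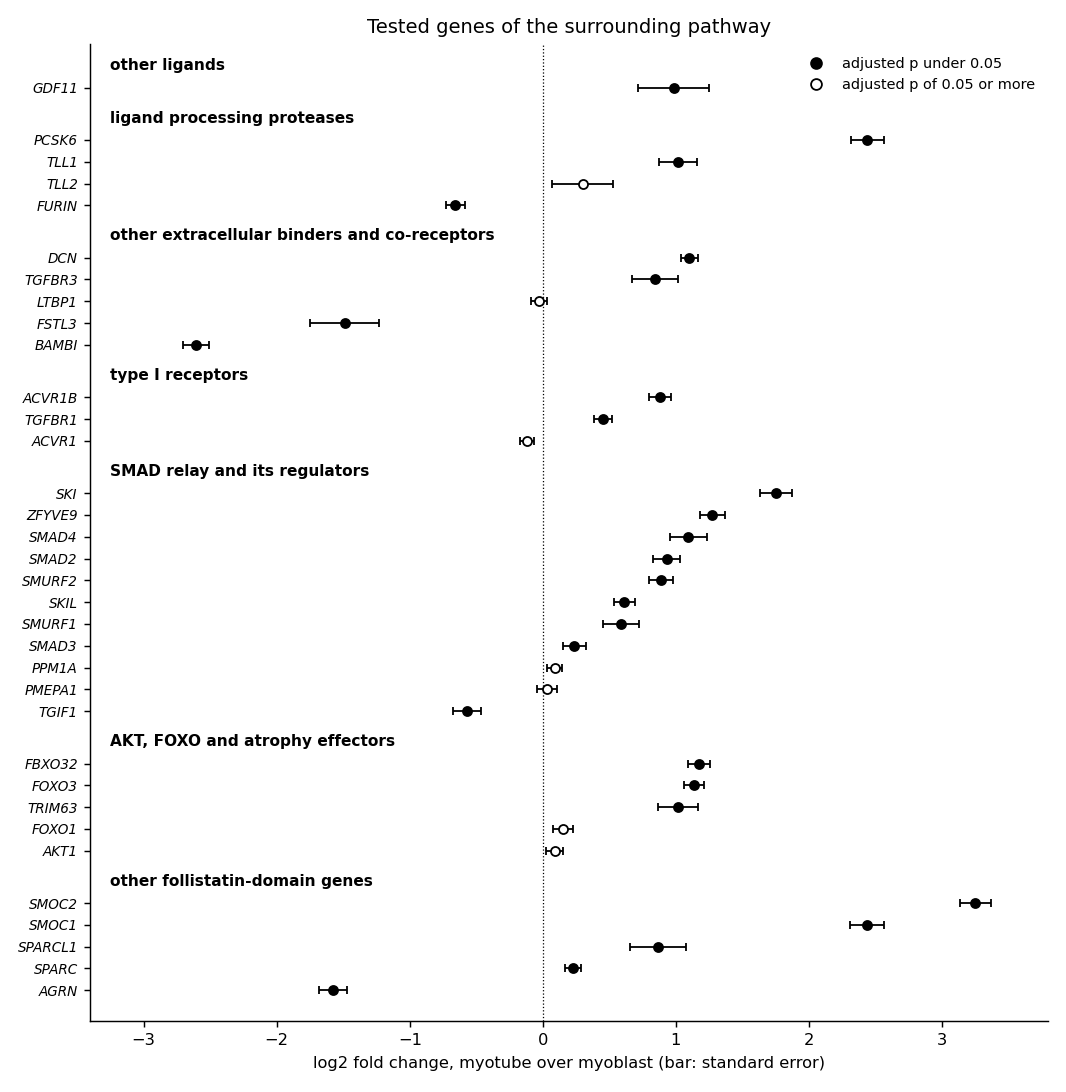
Log2 fold change of myotube over myoblast with its standard error for the tested genes around myostatin and activin, by role, filled where the adjusted p is under 0.05. FSTL3 belongs to the binders and to the follistatin-domain genes and is drawn once. Most genes of the SMAD relay lie right of 0, and BAMBI at -2.61 and SMOC2 at 3.25 mark the ends.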

How the data were processed

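The authors deposited 1 table per library, with the read count and the FPKM of each gene, per the file headers. HISAT and HTSeq are named, without versions, per the submitters' processing notes. The build, strandedness and handling of multiply matching reads are each not given in the sources used here. The deposited FPKM equals the count divided by the listed length and the library total for 6 of the 8 genes, and implies 1610 instead of 1688 bases for INHBA and 2184 instead of 3121 bases for ACVR2A, the same in all libraries.

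Loci without an Ensembl identifier (1.66 to 2.12% of counts) and 2 text rows in each myotube table (0 counts) were left out. Counts were tested for the 12808 genes whose FPKM averaged 1 or more, with edgeR 4.0.16 in R 4.3.3, with TMM scaling, the group as the only term, a two-sided quasi-likelihood F-test and Benjamini-Hochberg adjustment over all tested genes. Members and pathway genes under the filter were tested among the 20031 genes with at least 1 read. Intervals are 95% intervals of the fitted log2 fold change, and its SE is its absolute value divided by the root of F. CPM use the TMM-scaled sizes of the tested genes. Alternatives were DESeq2 1.42.0, limma 3.58.1 on log2 FPKM with a pseudocount of 1 or 0.1, other scalings and filters, robust variance, a replicate block, a threshold of 0.01 and leaving out each library.

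The genes and lists were chosen with earlier results of these data known. Named are all 8 genes and the matched pathway genes, tested or under the filter. These include in each pathway list the 2 called genes of largest change. Also named are the 3 tested genes with a symbol nearest in profile to each tested member, with 0.1 CPM added before the log. Marker lists are given by counts and sums, and the markers named were chosen after their values were seen. Names not in the tables were matched through RefSeq synonyms (gene table of assembly GRCg7b), which served for TGFBR1 and SMAD2. Counting intervals cover counting error only. One listed marker is not reported here.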

Additional observations from a re-analysis of the deposited data

How the results depend on the processing

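MSTN, INHBA and FSTL1 kept their direction and their call in all 18 alternatives, and ACVR2B in all 16 that could be run for it. ACVR2A kept its direction in 18 but its call in 7. FST and WFIKKN1 gained a call in 2 alternatives each, and WFIKKN2 in none of 16. The number of tested genes called was 9283 and ran from 7906 (threshold of 0.01) to 10561 (no filter), and from 8589 to 9097 on leaving out a library. Members called numbered 3 to 5, and called genes among the 34 tested pathway genes numbered 26 to 31. No paired design is known, and same-numbered libraries did not consistently deviate together (correlations of -0.08, 0.17 and -0.26). Pairs with different numbers ran from -0.21 to 0.28, and a pairing across numbers was not tested. With the replicate block 8784 genes, 3 members and 26 pathway genes were called, and ACVR2A was the member lost (log2 fold change -0.20, adjusted p = 0.058). Filtering on a mean count of 50 left no value for ACVR2B or WFIKKN2. Depth limits WFIKKN2 most, with 6 reads over the myotube and 7 over the myoblast libraries.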
